A study of Homo sapiens with 3 samples.

Results

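The cytochrome P450 (CYP), aldehyde dehydrogenase (ALDH) and UDP-glucuronosyltransferase (UGT) genes were followed in A549, a cell line derived from lung adenocarcinoma, after transfection of each strand of the *miR-139* duplex. The members were the protein-coding genes on the array whose RefSeq symbol is CYP plus number, letter and number (without *CYP51A1*), ALDH plus number, or UGT1A, UGT2A, UGT2B or UGT3A, a rule that uses the symbols alone. The array held 81 of these genes among 18216 protein-coding genes, and 50 of the 81 gave a signal well above background on at least 1 array. RNA of 3 groups was compared on 1 one-colour Agilent array each. All cells were A549 cells grown in RPMI medium and given the transfection reagent RNAiMAX. The mock group received the reagent only, the *miR-139-5p* group a precursor of the guide strand and the *miR-139-3p* group a precursor of the passenger strand, both at the same concentration according to the methods. The mock cells received no small RNA, so a response to any transfected RNA and a response to these strands cannot be told apart. The groups had no replicate arrays: differences below are between single arrays, no test was made, and a change in the share of cells of a kind and a change in RNA per cell cannot be told apart. The number of arrays limits the precision.

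Cytochromes P450 insert an oxygen atom into drugs, fatty acids, steroids, vitamins D and retinoids, and most need electrons from a reductase or a ferredoxin. Aldehyde dehydrogenases turn reactive aldehydes from lipid peroxidation, amino acids, folate and retinaldehyde into acids. UDP-glucuronosyltransferases join glucuronic acid to the products so that they leave the cell. A549 cells are known for high aldehyde dehydrogenase and for a lasting antioxidant (NRF2) response that goes with a mutated *KEAP1*.

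Both strands come from the gene *MIR139* on the minus strand of chromosome 11 (RefSeq, GRCh38.p14), with *miR-139-3p* at chr11:72615066-72615088 and *miR-139-5p* at chr11:72615102-72615124. They are shown because they are the only agents that differed between the groups. Capitals mark the seed, bases 2 to 8 from the 5′ end, which differs between the strands.
hsa-miR-139-3p: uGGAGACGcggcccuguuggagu
hsa-miR-139-5p: uCUACAGUgcacgugucuccagu

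Each level below is the log2 of a probe's background-subtracted signal relative to the 75th percentile of its array, so 0 is the 75th percentile. A fold change is the difference of such levels against mock on the log2 scale, averaged over a gene's probes that were well above background on both arrays. Where a gene was well above background on only 1 of the arrays compared, the difference is a bound, set against the higher of the lowest signal called well above background on the other array and the gene's own signal there. For *ALDH1L1*, *CYP21A2*, *CYP4V2*, *UGT2B7* and *UGT2B11* the gene's own signal was the higher, so their bound is a plain difference and no minimum. A difference over 0.5 in size is called lower or higher. Levels of different probes were not compared with each other. Both comparisons share the mock array, so a low or high mock signal moves both values of a gene the same way.

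The arrays held 60901 spots each, of which 48.1% to 53.1% were well above background. The *miR-139-3p* array was on another slide than those of mock and *miR-139-5p*, so slide and transfection cannot be told apart for *miR-139-3p*. Its median local background was 16, against 24 and 23, and it had 1526 outlier spots, against 614 and 935. Over 7 spike-in probes the *miR-139-3p* array differed from mock by a mean of 0.20 (SD 0.13) and the *miR-139-5p* array by -0.12 (SD 0.03). All 6 epithelial markers were well above background on every array, but with *miR-139-3p* 3 of them were lower and 1 higher, and with *miR-139-5p* 4 were lower. Of 15 markers of fibroblasts, endothelium, leukocytes and hepatocytes, 8, 7 and 8 were so with mock, *miR-139-5p* and then *miR-139-3p*, among them *PTPRC*, *CDH5* and *PDGFRB* on every array, while *ALB*, *APOB*, *COL3A1*, *DCN* and *PECAM1* were on none. Their summed signal was 386 on the mock array, 465 with *miR-139-5p* against 158 with *miR-139-3p*.

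Members were detected less often than genes at large, at 61.7% against 76.4% of protein-coding genes. The signal was well above background for 27 of 52 CYP genes, 16 of 18 ALDH genes and 7 of 11 UGT genes. On the single arrays, 43 members were detected with mock, 43 with *miR-139-5p* but 46 with *miR-139-3p*, and 38 on all 3 arrays. The 31 genes on no array included most of the P450s of steroid and bile acid synthesis (*CYP7A1*, *CYP8B1*, *CYP11A1*, *CYP11B1*, *CYP11B2*, *CYP19A1*, *CYP27A1*), the smoke-induced *CYP1A1*, and *CYP2C8*, *CYP2C19* and *CYP2E1*, which are known as liver enzymes. Also among them were *CYP2A7*, *CYP2F1*, *CYP3A43*, *CYP4A22*, *CYP4B1*, *CYP4F22*, *CYP4X1*, *CYP4Z1*, *CYP7B1*, *CYP26B1*, *CYP26C1*, *CYP39A1*, *CYP46A1*, *ALDH1A2*, *ALDH8A1*, *UGT2A1*, *UGT2A3*, *UGT2B4* and *UGT3A2*. They are not well above background at this signal, which does not show that they are absent.

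With *miR-139-3p*, the CYP4F fatty acid hydroxylases, the ALDH3 aldehyde dehydrogenases and the UGT1A transferases were lower, while 15 of 22 other CYP genes were higher. CYP4F was set apart from the other CYP genes with the values known. Of all 27 CYP genes with a value, 15 were higher and 5 lower. In all, 48 members had a value, of which 16 were lower, where 30.5% of protein-coding genes were, and 17 higher, where 23.0% were. The members' shares were 33.3% and 35.4%. Their median was 0.06, against -0.13 over all 13551 protein-coding genes with a value. Of these 48 values 8 were bounds, which pass only through the array where the gene was high. Among the 40 members measured on both arrays, 14 were lower (31.4% of protein-coding genes) and 12 higher (20.6%). With quantile normalization 17 members were lower and 11 higher, which puts the higher ones at 39.3% of those past 0.5 in place of 51.5%.

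With *miR-139-5p*, fewer members differed from mock. Of 45 members with a value, 8 were lower, where 12.2% of protein-coding genes were, and 8 higher, where 10.6% were, and the members' share was 17.8% in each direction. The median was -0.03, against -0.01 over 13195 protein-coding genes. Among the 41 measured on both arrays, 7 were lower (11.4%) and 6 higher (10.3%). With scaling to the spike-in probes 4 members were lower and 11 higher, so that the higher ones made up 73.3% of those past 0.5 in place of 8 of 16.

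**Figure D1:**
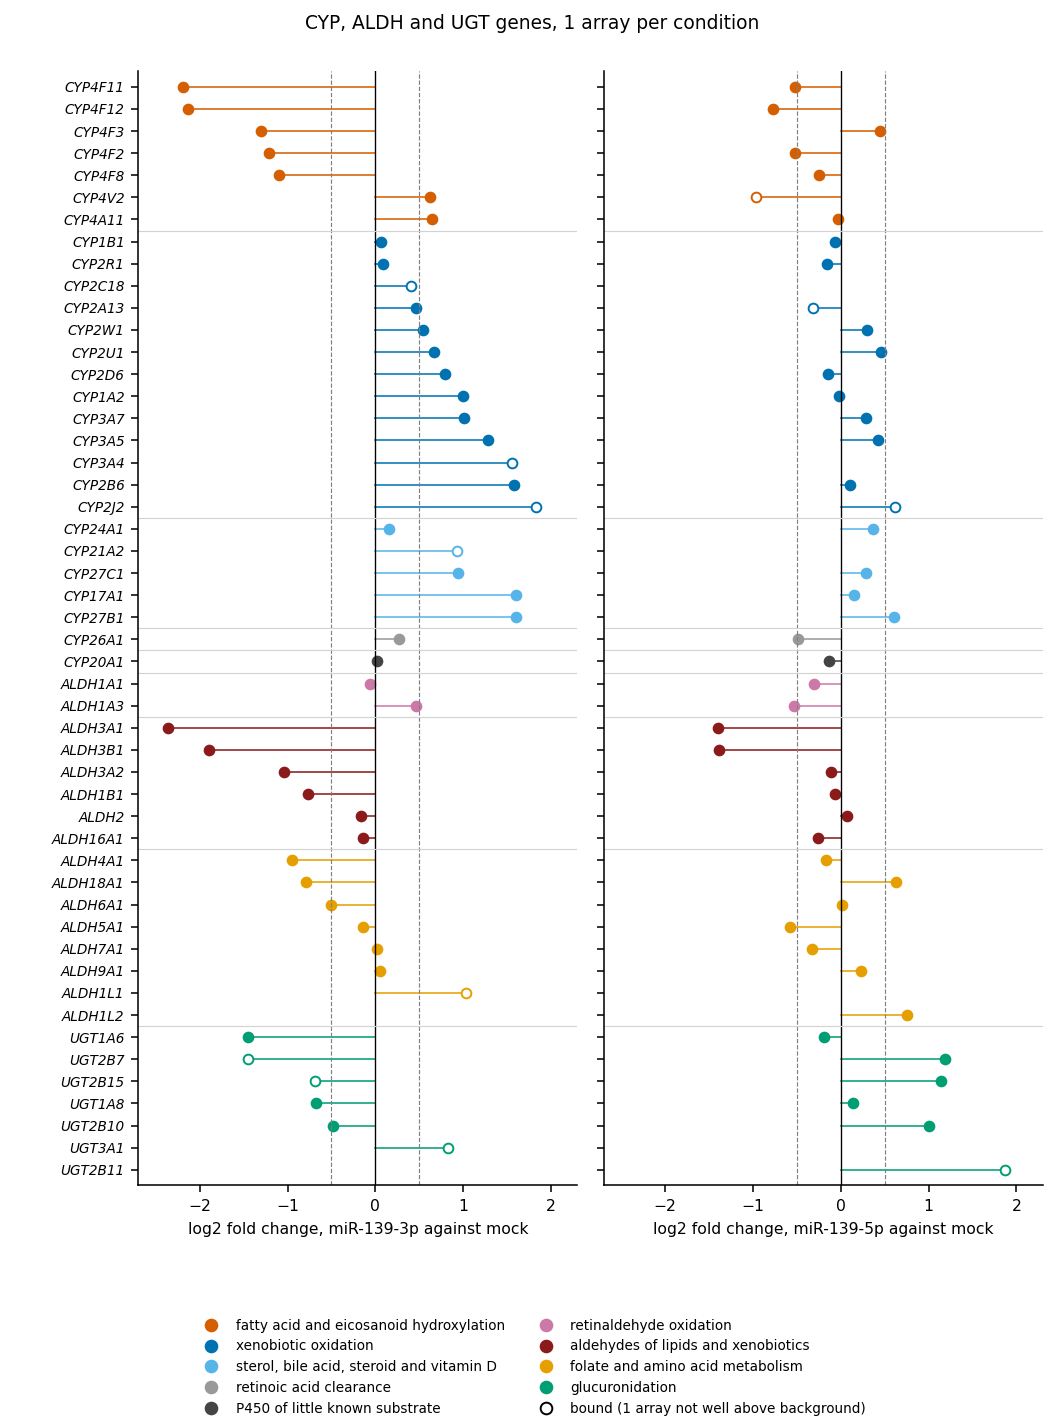
Log2 fold change against mock of each detected member, grouped by role (colours), with *miR-139-3p* on the left and *miR-139-5p* on the right. Roles of the P450s went by family number. Filled points are measured on both arrays, open points are bounds, dashed lines mark 0.5 in each direction. Values run from -2.36 to 1.83 with *miR-139-3p* and from -1.40 to 1.87 with *miR-139-5p*.

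The CYP4F genes encode hydroxylases of fatty acids, eicosanoids and the side chains of vitamins E and K, and lie near one another on chromosome 19. *CYP4F12*, which acts on arachidonic acid and some drugs, stood at -0.36 with mock, -1.13 with *miR-139-5p* and, lowest, -2.50 with *miR-139-3p*. For *CYP4F11*, an omega-hydroxylase of long-chain and hydroxylated fatty acids, a first probe gave -1.57, -2.44 and -3.70 on these arrays and a second 0.72, 0.56 and -1.53. *CYP4F3*, which inactivates leukotriene B, had levels of 0.46, 0.91 and -0.84 in the same order. The *miR-139-3p* array was the lowest of the 3 for each of these probes.

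*CYP4F8*, known for hydroxylation of prostaglandin endoperoxides, had levels of 1.10 on the mock array, 0.86 with *miR-139-5p* against 0.01 with *miR-139-3p*. *CYP4F2*, the omega-hydroxylase of arachidonic acid and vitamin K, was at -1.78, -2.30 and -2.99 by the probe measured on all arrays. Its second probe was not well above background with mock (-5.66) or *miR-139-5p* (-6.32) and was at -2.82 with *miR-139-3p*, a bound of 1.45 in the other direction, so the probes of *CYP4F2* disagree.

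Against mock, the 5 CYP4F genes were all lower with *miR-139-3p*, where 31.4% of protein-coding genes measured on both arrays were, though *CYP4F2* by only 1 of its probes. *CYP4F11* was at -2.19 (4.56-fold lower), *CYP4F12* at -2.14 (4.40-fold), *CYP4F3* at -1.30 (2.47-fold), *CYP4F2* at -1.22 (2.32-fold) and *CYP4F8* at -1.10 (2.14-fold). Their median was -1.30, and under the scalings tried the highest of the 5 values stayed between -1.31 and -0.96. Normexp background correction brought *CYP4F11* to -0.81, *CYP4F12* to -0.77, *CYP4F3* to -0.76, *CYP4F8* to -0.81 and *CYP4F2* to -0.29, and with no filter on dim probes *CYP4F2* was at 0.81. With *miR-139-5p*, *CYP4F12* (-0.77), *CYP4F2* (-0.52) and *CYP4F11* (-0.52) were lower, *CYP4F8* was at -0.25 and *CYP4F3* at 0.44. The calls of *CYP4F2* and *CYP4F11* with *miR-139-5p* were lost with spike-in scaling (-0.40 each), quantile normalization (-0.46 and -0.48), the deposited log2 values and normexp. With normexp the call of *CYP4F12* was lost too, at -0.44, so no CYP4F call with *miR-139-5p* remained. The 2 probes of *CYP4F11* gave -2.25 and -2.13 with *miR-139-3p* but -0.16 and -0.87 with *miR-139-5p*. CYP4F genes are alike in sequence, and signal shared between them was not tested. The transcribed pseudogene *CYP4F62P* went the other way, at 0.16, 0.41 and 1.95.

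The remaining family 4 genes were dim. *CYP4V2*, an omega-hydroxylase mutated in a retinal dystrophy, had levels of -3.11 with mock, -4.07 (not well above background) with *miR-139-5p* but -2.49 with *miR-139-3p*. That made it 0.62 higher with *miR-139-3p* and lower with *miR-139-5p*, with a bound of -0.96 (1.95-fold). The first of these calls held in 4 of 9 alternatives, with a lowest value of 0.21. *CYP4A11*, the fatty acid omega-hydroxylase of liver and kidney, stood at -3.70, -3.73 and -3.06, or 0.65 higher with *miR-139-3p* (0.15 with quantile normalization or normexp), while its second probe was well above background with *miR-139-3p* alone (-5.54, -6.26 and -3.06). All these values lie near the lowest signal called well above background, -4.28 on the mock array.

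**Figure D2:**
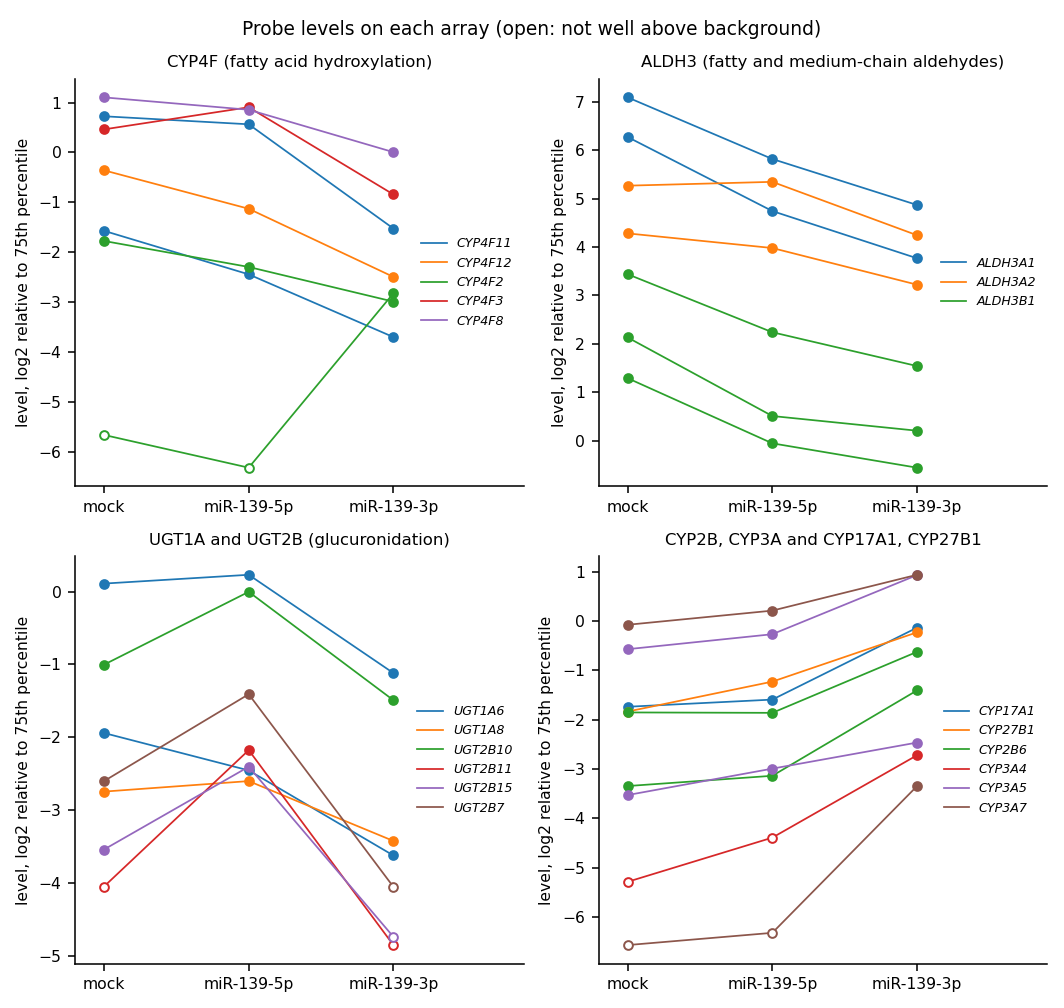
Level of each probe on the 3 arrays (log2 relative to the 75th percentile) for the CYP4F, ALDH3 and UGT genes and for 6 P450 genes higher with *miR-139-3p*. Lines join the arrays of 1 probe, with several lines where a gene has several probes, and open points are not well above background. The ALDH3 lines end lowest with *miR-139-3p*, the UGT2B lines peak with *miR-139-5p*, and 1 probe of *CYP4F2* crosses the others, from -5.66 to -2.82.

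Among the aldehyde dehydrogenases of lipids and xenobiotics, the ALDH3 genes were lower. *ALDH3A1*, which oxidises medium-chain and aromatic aldehydes and is abundant in many lung cancers, gave 6.27 with mock, 4.74 with *miR-139-5p* and down to 3.77 with *miR-139-3p* by 1 probe, and 7.09, 5.82 and 4.87 by the other. *ALDH3B1*, which oxidises aldehydes of lipid peroxidation, gave 3.44, 2.24 and 1.54 by its brightest probe. Its other probes read 1.29, -0.06 and -0.56, and 2.13, 0.51 and 0.20. All 5 of these probes were highest with mock and lowest with *miR-139-3p*.

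*ALDH3A1* was thus 5.15-fold lower with *miR-139-3p* (-2.36 on the log2 scale) and 2.64-fold lower with *miR-139-5p* (-1.40). *ALDH3B1* was 3.71-fold lower (-1.89) and 2.62-fold lower (-1.39). Among members measured on both arrays, these were the lowest values in the *miR-139-5p* comparison, and *ALDH3A1* was the lowest in the *miR-139-3p* comparison. Their probes differed among themselves by 0.08 to 0.42, far less than the change. Both stayed lower by more than 0.5 in each comparison under all 10 alternatives run for single genes.

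*ALDH3A2*, the fatty aldehyde dehydrogenase mutated in Sjögren-Larsson syndrome, lies near *ALDH3A1* on chromosome 17. Its 2 probes read 5.27 and 4.28 with mock, 5.34 and 3.98 with *miR-139-5p*, and 4.24 and 3.22 with *miR-139-3p*, a difference of -1.04 for *miR-139-3p* but -0.11 for *miR-139-5p*. *ALDH1B1*, a mitochondrial enzyme of acetaldehyde, was at 2.02, 1.95 and 1.25, or -0.77 and -0.07. *ALDH2*, the main acetaldehyde dehydrogenase, differed by -0.16 and 0.07, and *ALDH16A1* by -0.15 and -0.26. Of the 6 genes of this role 4 were lower with *miR-139-3p*, where 30.5% of protein-coding genes were, and 2 with the other strand, where 12.2% were.

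Of the 2 detected retinaldehyde dehydrogenases, neither passed 0.5 with *miR-139-3p* and *ALDH1A3* was lower with *miR-139-5p*. The 2 probes of *ALDH1A1*, known to be abundant in A549 cells, read 8.61 and 5.58 with mock, 8.41 and 5.17 with *miR-139-5p*, and 8.71 and 5.35 with *miR-139-3p*. This gave -0.06 with *miR-139-3p*, with probes on both sides of 0, and -0.31 with *miR-139-5p*. *ALDH1A3*, which also makes retinoic acid, was at 1.12, 0.59 and 1.58. It was 0.46 above mock with *miR-139-3p* and lower, at -0.53, with *miR-139-5p*. *CYP26A1*, which clears retinoic acid, differed by 0.26 and -0.48.

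Of 7 genes of folate and amino acid metabolism with a value, 3 were lower with *miR-139-3p* and 1 higher, where 30.5% and 23.0% of protein-coding genes were. *ALDH18A1*, the pyrroline-carboxylate synthase, stood at 2.09 with mock, 2.73 with *miR-139-5p* but 1.31 with *miR-139-3p*, so that it was -0.79 in one comparison and 0.63 in the other. *ALDH4A1*, which degrades proline, had 1 probe at 2.62, 2.05 and 2.25 and another at -1.07, -0.82 and -2.60. The mean was -0.95 with *miR-139-3p*, but the probes gave -0.37 and -1.53, and only the second was past 0.5. The mean was -0.41 with normexp.

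*ALDH6A1*, of valine breakdown, was at 0.27, 0.28 and -0.24, a difference of -0.50 with *miR-139-3p* that barely passed. *ALDH5A1*, which clears succinic semialdehyde, was at -0.54, -1.12 and -0.68, or -0.58 with *miR-139-5p* against -0.14 with *miR-139-3p*. *ALDH7A1* and *ALDH9A1* lay between the limits in both comparisons, but the 3 probes of *ALDH7A1* ranged from -0.40 to 0.44 with *miR-139-3p* and from -1.04 to 0.12 with *miR-139-5p*.

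Of the formyltetrahydrofolate dehydrogenases, *ALDH1L1*, the cytosolic form, was near background, at -4.05 and -4.18 (both not well above background) and -3.02 with *miR-139-3p*, a bound of 1.03 higher. *ALDH1L2*, the mitochondrial form, was at -1.88 with mock and -1.12 with *miR-139-5p*, or 0.76 higher. Its only spot on the *miR-139-3p* array was an outlier and gave no value, and was -0.21 against mock when kept.

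Of the 7 detected UGT genes, *UGT2B7* and *UGT2B15* passed 0.5 in opposite directions with the strands, and the others in 1 comparison each. *UGT2B7*, which conjugates oestrogens, morphine and bile acids, stood at -2.60 with mock, -1.41 with *miR-139-5p* and -4.05 (not well above background) with *miR-139-3p*. *UGT2B15*, which conjugates androgens, stood at -3.54, -2.40 and -4.74, the last not well above background. *UGT2B10*, known for the conjugation of nicotine, was at -1.003, -0.0037 and -1.49, and *UGT2B11* at -4.05, -2.18 and -4.85, well above background with *miR-139-5p* only.

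All 4 detected UGT2B genes were higher with *miR-139-5p*: *UGT2B7* by 1.19 (2.28-fold), *UGT2B15* by 1.14 (2.20-fold), *UGT2B10* by 0.999 and *UGT2B11* by a bound of 1.87 (3.66-fold). With *miR-139-3p*, *UGT2B7* had a bound of -1.45 (2.73-fold lower) and *UGT2B15* a bound of -0.69 (at least 1.61-fold lower), and *UGT2B10* was at -0.49. *UGT2B11* counts only through the array where it was high. Measured on both arrays, 3 of 3 were higher with *miR-139-5p*, where 10.3% of protein-coding genes were. For each of these genes the *miR-139-5p* array was the highest of the 3. With normexp background correction only *UGT2B10* (0.58) stayed past 0.5 with *miR-139-5p*, while *UGT2B7* was at 0.38, *UGT2B11* at 0.34 and *UGT2B15* at 0.21, and with *miR-139-3p* the bounds of *UGT2B7* and *UGT2B15* came to -0.12 and -0.04. Of the markers of other cell types, *COL1A1* (1.41) and the hepatocyte marker *TTR* (0.997) were also higher with *miR-139-5p*, and their part in the result was not tested. UGT2B genes are close copies, so their probes may share signal, which was not tested.

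*UGT1A6*, which conjugates phenols, was lower with *miR-139-3p* by both probes, at 0.11 with mock, 0.23 with *miR-139-5p* but -1.12 with *miR-139-3p*, and at -1.94, -2.45 and -3.62. The fold change was -1.45 (2.74-fold lower), against -0.20 with *miR-139-5p*. *UGT1A8* was at -2.75, -2.60 and -3.42, or -0.68 and 0.14. With normexp background correction neither passed 0.5 with *miR-139-3p*, *UGT1A6* at -0.43 and *UGT1A8* at -0.02. The UGT1A genes overlap on chromosome 2 and share their last exons, and whether these probes tell them apart was not tested. *UGT3A1*, which transfers N-acetylglucosamine, was well above background with *miR-139-3p* alone (-4.54, -5.58 and -3.46), a bound of at least 0.82 higher.

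The UGT2B genes that moved together lie within 1 cluster on chromosome 4, and the promoters of the 4 detected ones hold a common run of 12 bases. It is shown because the genes shared a direction with *miR-139-5p* and the rule did not use sequence. The windows are 30 bases from RefSeq promoters (GRCh38.p14), 5′ to 3′ on the strand of the gene, with the shared run in capitals. They lie at chr4:69096290-69096319 (plus), chr4:68815808-68815837 (plus), chr4:69214909-69214938 (minus) and chr4:68670814-68670843 (minus).
UGT2B7: tagcactcaTAAACATAAAAGggaaattaa
UGT2B10: caccaaataTAAACATAAAAGaaacatcaa
UGT2B11: cagtgaataTAAACATAAAAGaaacataaa
UGT2B15: gagtaattgTAAACATAAAAGaacaccaaa

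The run starts 175 to 182 bases before the gene start in these promoters. On either strand it occurs in 6 of 35116 promoters of 300 bases (0.0171%). It was looked for after the genes' values were seen, and is a description of these windows and not a binding site. UGT2B genes are close copies, and how far this likeness gives the shared run was not tested. The same search over the 4 CYP4F genes with a promoter gave a run of 7 bases, which is in 3.2% of all promoters.

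The P450s of xenobiotic oxidation (families 1 to 3) were higher or near mock with *miR-139-3p*, and none of the 13 with a value was lower. Of these 13, 9 were higher, 2 of them bounds, where 23.0% of protein-coding genes were. Measured on both arrays, 7 of 10 were higher, where 20.6% of protein-coding genes were and 32.7% of those below the 75th percentile. The median of the 13 was 0.79. With quantile normalization *CYP2W1* (0.05), *CYP2D6* (0.38) and *CYP2U1* (0.44) no longer passed 0.5, which left 6 of the 9. With normexp only *CYP2B6*, *CYP2W1*, *CYP3A5* and *CYP3A7* of the 9 stayed past 0.5. It brought *CYP1A2* to 0.38, *CYP2J2* to 0.35 and *CYP3A4* to 0.33. *CYP2B6*, which oxidises bupropion and efavirenz, had 1 probe at -1.85 with mock, -1.86 with *miR-139-5p* but -0.62 with *miR-139-3p* and another at -3.35, -3.14 and -1.41. It was 3.00-fold higher with *miR-139-3p* (1.58) against 0.10 with *miR-139-5p*. Both probes were highest with *miR-139-3p* and alike on the other arrays.

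In the CYP3A family, the main drug-oxidising P450s of liver and gut, *CYP3A5* had probes at -0.57, -0.27 and 0.93 and at -3.53, -2.99 and -2.46 in the order mock, *miR-139-5p*, then *miR-139-3p*. *CYP3A7*, the fetal form, was at -0.07, 0.21 and 0.94, and its second probe was well above background with *miR-139-3p* alone (-6.57, -6.32 and -3.35). *CYP3A4* was at -5.29, -4.39 and -2.72, only the last well above background. The fold changes with *miR-139-3p* were 1.28 for *CYP3A5* (2.43-fold), 1.01 for *CYP3A7* (2.02-fold) and at least 1.56 for *CYP3A4* (at least 2.94-fold). With *miR-139-5p*, *CYP3A5* was at 0.42 and *CYP3A7* at 0.29. The CYP3A genes are close copies on chromosome 7, and shared signal was not tested.

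*CYP2J2*, which epoxidises arachidonic acid, was at -4.89 with mock (not well above background), -3.66 with *miR-139-5p* and up to -2.45 with *miR-139-3p*, bounds of at least 0.61 and at least 1.83 higher. *CYP1A2*, which demethylates caffeine, was at -2.16, -2.18 and -1.17, or 0.99 higher with *miR-139-3p*. *CYP2D6*, known for opioid and antidepressant metabolism, had probes at -2.45, -2.59 and -1.59 and at -3.97, -4.56 and -3.25, or 0.79 higher. For these genes the *miR-139-3p* array was the highest of the 3.

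*CYP2U1*, a fatty acid hydroxylase, was at -1.85, -1.39 and -1.18, which was 0.67 higher with *miR-139-3p* against 0.46 with *miR-139-5p*. *CYP2W1*, a P450 found mainly in tumors and fetal gut, was at 9.38, 9.68 and 9.92, or 0.55 higher with *miR-139-3p*. *CYP1B1*, *CYP2R1*, *CYP2A13* and *CYP2C18* did not pass 0.5, at 0.07, 0.09, 0.46 and at least 0.41.

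Of the P450s placed by family number under sterols, steroids and vitamin D, 4 of 5 were higher with *miR-139-3p*, 1 of them a bound, where 23.0% of protein-coding genes were. By this rule *CYP27C1* counts here, while *CYP2R1* (0.09) counts under xenobiotic oxidation, so another grouping would change these counts. Measured on both arrays, 3 of 4 were higher, where 20.6% of protein-coding genes were and 32.7% of those below the 75th percentile. *CYP27B1*, which activates vitamin D, was at -1.83 with mock, -1.23 with *miR-139-5p* and up to -0.23 with *miR-139-3p*. *CYP24A1*, which degrades it, had probes at 4.01 and 4.03 with mock, 4.47 and 4.30 with *miR-139-5p*, and 4.32 and 4.03 with *miR-139-3p*. The activating enzyme was thus 3.05-fold higher with *miR-139-3p* (1.61) and 1.52-fold with *miR-139-5p* (0.61), while *CYP24A1* differed by 0.16 and 0.36.

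*CYP17A1*, a steroid hydroxylase and lyase, was at -1.74, -1.59 and -0.13, or 3.04-fold higher with *miR-139-3p* (1.60) against 0.15 with *miR-139-5p*. *CYP27C1*, known for dehydrogenation of retinol, had probes at -2.99, -2.76 and -2.43 and at -2.46, -2.13 and -1.13, a mean of 0.95 with *miR-139-3p*. *CYP21A2*, which has a near-identical pseudogene, was well above background with *miR-139-3p* alone (-3.98, -5.04 and -3.05), a bound of 0.93 (0.43 with quantile normalization). *CYP20A1*, of little known substrate, differed by 0.02 and -0.13.

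The higher P450s were mostly dim, and dim genes at large were also more often higher on the *miR-139-3p* array. Of genes measured on both arrays with a mean level below the 75th percentile, 11 of 13 CYP genes other than CYP4F were higher, where 32.7% of 5223 protein-coding genes were, with a median of 0.95 against 0.09. At or above the 75th percentile 1 of 5 was higher, where 12.0% of 7401 were. CYP4F was set apart with the values known, so these counts describe the split and test nothing. Below the 75th percentile all 3 CYP4F genes were lower, where 24.5% were, and at or above it both were, where 36.3% were. Of the ALDH genes at or above the 75th percentile, 7 of 13 were lower. With *miR-139-5p*, 4 of the 20 members below the 75th percentile were lower and 4 higher, where 15.2% and 13.2% of protein-coding genes were, and of the 20 at or above it 3 were lower and 1 higher, where 8.76% and 8.13% were.

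**Figure D3:**
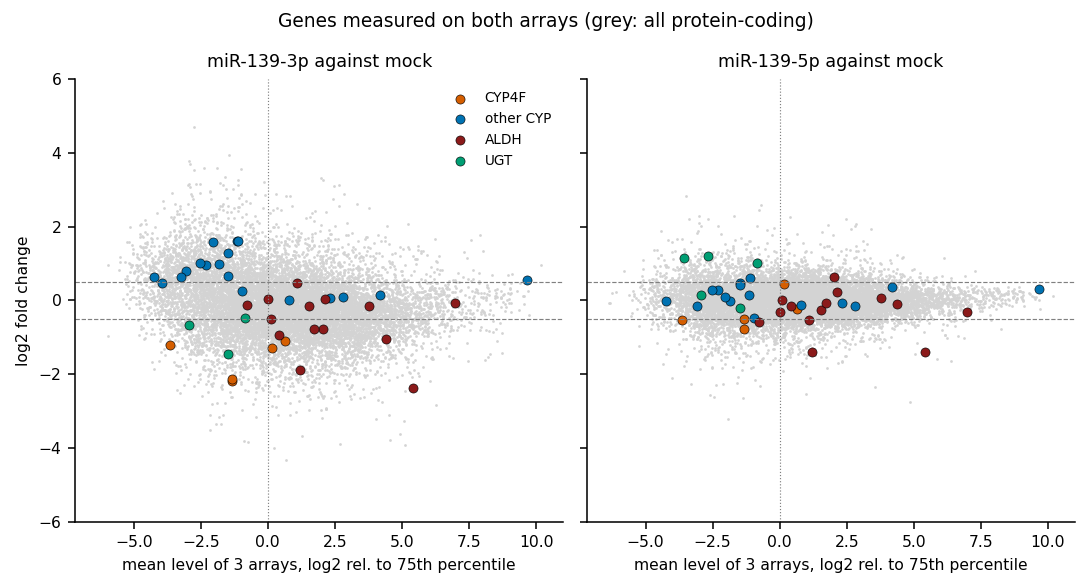
Log2 fold change against the mean level of the 3 arrays for genes measured on both arrays, with all protein-coding genes in grey, members in colour and dashed lines at 0.5 in each direction. With *miR-139-3p* (left) the CYP genes other than CYP4F lie above 0 and the CYP4F genes below -1 at like mean levels, and with *miR-139-5p* (right) the members spread less.

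Markers of other cell types went both ways with *miR-139-3p*. Of the 9 of 15 with a value, 4 were higher than with mock, *PTPRC* (1.26), *VWF* (1.05), *CDH5* (1.004) and *PDGFRB* (0.94), and 3 were lower, *CD14* (-1.98), *TTR* (a bound of -1.09) and *COL1A1* (-0.61). Their lower summed signal on that array was that of *CD14*, at 292 with mock but 64.0 with *miR-139-3p*, and without it the sums were 94.0 and 94.5. Their part in the result was not tested. With normexp background correction, which pulls dim signals together, 6 of the 17 higher members remained so (*CYP17A1*, *CYP27B1*, *CYP2B6*, *CYP2W1*, *CYP3A5*, *CYP3A7*). The same setting left 9 of the 16 lower members, among them the ALDH3 genes, *CYP4F11*, *CYP4F12*, *CYP4F3* and *CYP4F8*.

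Promoters of the lower genes were searched for a core of the antioxidant response element, TGACNNNGC, on both strands, since NRF2 is known to drive many of these enzymes. RefSeq promoters were matched for 39 of the 50 detected members and for 14 of the 16 lower with *miR-139-3p*. The motif was in 3 of those 14, in 2 of the 14 matched higher genes, and in 13.3% of all 35116 promoters. A gene counts by a match in any of its promoters, while the share over all counts single promoters, so these are unlike measures. The windows below are 30 bases of the gene's strand with the match in capitals, at chr2:233692782-233692811 (plus), chr19:15615050-15615079 (plus) and chr19:15935004-15935033 (minus). The matches begin 98 to 158 bases before the gene start.
UGT1A6: aggtgaaagcTGACACGGCcatagttggtt
CYP4F8: gagtggccatGCTCGGTCAccctgaattgg
CYP4F11: ctgtgcccatGCTGTGTCAccctgagctgg

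The windows of *CYP4F8* and *CYP4F11* hold the motif on the other strand. The xenobiotic response element core GCGTG was in 3 of 14 lower and 5 of 14 higher members' promoters, against 36.5% of all single promoters, again an unlike measure. A match is a description of these letters only.

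Genes that serve these enzymes were taken as 7 lists of 90 genes, of which 84 were on the array. With *miR-139-3p*, 35 of the 72 with a value were lower and 8 higher, with a median of -0.48. With *miR-139-5p*, 13 of 69 were lower and 3 higher, with a median of -0.05. Over protein-coding genes the lower share was 30.5% and the higher 23.0% with *miR-139-3p*, and 12.2% and 10.6% in the other comparison. The counts of single lists that follow stand against these shares.

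Among the electron partners, *CYB5A*, cytochrome b5, was lower with *miR-139-3p* (-1.18) and *FDX1*, the ferredoxin of mitochondrial P450s, too (-0.67). *FDXR*, which passes electrons to ferredoxin, was at 6.04 with mock, 5.02 with *miR-139-5p* but 7.69 with *miR-139-3p*, or 1.65 in one comparison and -1.02 in the other. Of 11 regulators with a value, 6 were lower with *miR-139-3p* and none higher, among the lower ones *VDR* (-1.68), *RARG* (-1.04), *AHR* (-1.03), *ARNT* (-0.78) and *RXRA* (-0.53). The receptors *NR1I2* and *NR1I3*, which drive CYP3A and CYP2B genes, were well above background on no array, and nor was the single probe of *NFE2L2*, the gene of NRF2.

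In retinoid handling, *RBP4*, the plasma carrier of retinol, was at 1.40, 0.48 and -1.46, or -2.86 with *miR-139-3p* against -0.92 with *miR-139-5p*. *STRA6*, its receptor, was lower with *miR-139-3p* (-1.19), as was *RDH10* (-0.81), while *RDH11* (0.90) and *CRABP2* (0.94) were higher. *UGP2*, which makes UDP-glucose for glucuronidation, was lower (-1.01), and the next enzyme *UGDH* was at -0.34.

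Of 20 genes of other oxidation, reduction and hydrolysis with a value, 12 were lower on the *miR-139-3p* array and 4 higher, and this list had the lowest median of the 7, -0.73. Bounds were *FMO1* (0.96) and *FMO4* (0.63) among the higher genes and *AOX1* (-1.27) among the lower. The lower ones included the carbonyl and aldo-keto reductases *CBR3* (-1.73), *AKR1B1* (-1.45) and *AKR1B10* (-1.43), the carboxylesterase *CES1* (-1.50), and the epoxide hydrolases *EPHX2* (-1.43) and *EPHX1* (-1.27). With *miR-139-5p*, *EPHX1* (-1.19) and *EPHX2* (-0.69) were lower as well and *AKR1B10* was at 0.31. *NQO1* was at 0.07 and -0.22.

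In conjugation and transport, *GSTA4* (-1.56), *SULT2B1* (-1.40) and *NAT1* (-1.36) were lower with *miR-139-3p*, and 7 of 16 genes of other conjugation were. *ABCC1* (-1.24), *ABCG2* (-0.96) and *SLCO1B3* (-0.87) were the 3 lower ones of 7 transporters, and none was higher.

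**Figure D4:**
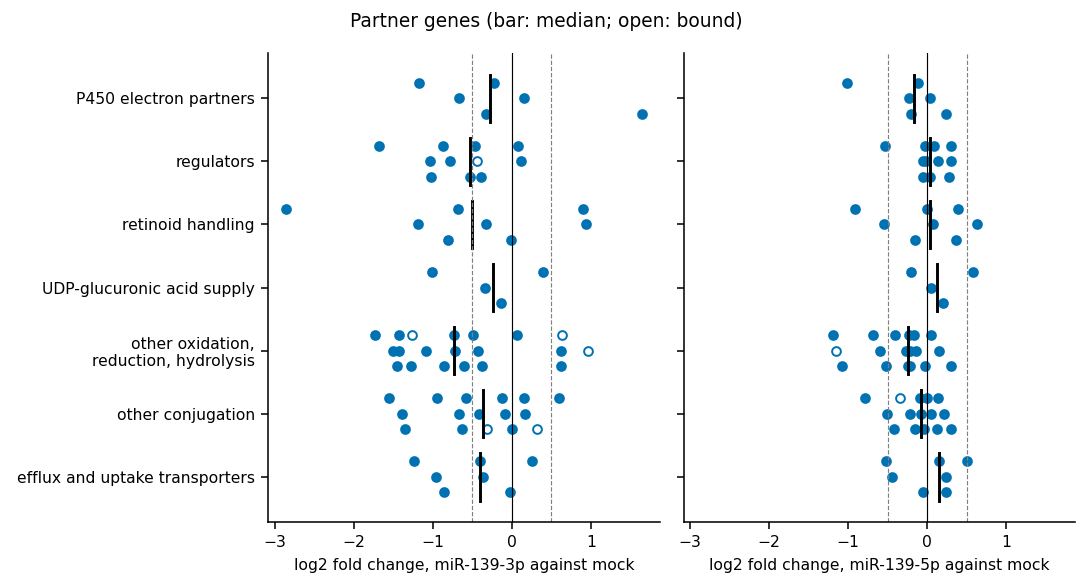
Log2 fold change against mock of the genes in each of the 7 lists of partner genes, with *miR-139-3p* on the left and *miR-139-5p* on the right, a point per gene, open points for bounds, a bar at each list's median and dashed lines at 0.5 in each direction. With *miR-139-3p* every list has a median below 0, from -0.73 to -0.24, and with *miR-139-5p* the medians lie from -0.24 to 0.16.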

How the data were processed

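Gene expression in A549 cells was measured on 3 one-colour Agilent arrays, 1 per group (mock and each *miR-139* strand). As the authors deposited them, the spot files hold an intensity for each spot, read by Feature Extraction 12.1.1.1, with the background subtracted and no normalization between arrays, and a second file gives log2 values by probe. These deposited log2 values matched the quantile-normalized signals of the spot files (r = 1.0000 on each array) and served as an alternative. Genome build and annotation behind the probes are not given in the sources used here.

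The log2 of the processed signal minus that of the 75th percentile of each array was computed, outlier spots were left out and the spots of a probe averaged. A probe counted as detected where at least 50% of its spots were well above background. Of 25277 probes with an NM accession, 24751 were named through RefSeq annotation (GRCh38.p14). For 300 probes spotted 10 times, the spots of an array had a median SD of 0.05 to 0.06, and probes of the same gene one of 0.28 for the *miR-139-3p* comparison and 0.15 for *miR-139-5p*.

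With 1 array per group no test was made. Every member past 0.5 in either comparison is named with its values on each array. Members, lists and markers were chosen with earlier results of these data known. The planned 11 alternatives changed how the background was corrected, the scaling, which dim probes entered, which probe stood for a gene, outlier spots, the threshold or the source of the values. On simulated data with 22306 names, 96 of 96 genes changed by 1 and 102 of 102 changed by 2 on the log2 scale were recovered, and 0 of 22108 unchanged names passed the threshold. The simulated arrays were copies of the mock array with spot noise and an overall shift, and the changed genes came from brighter signals. This checks the steps only. It gives no rate of false calls between real arrays or for dim genes. Python 3.11.15 with numpy 2.4.6, pandas 2.3.3 and matplotlib 3.10.9 served for all steps but normexp (offset 50), which came from limma 3.58.1 in R 4.3.3. Sequences were taken from RefSeq tables. A few genes of the lists are counted but not reported here by name.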

Additional observations from a re-analysis of the deposited data

Results flagged for a closer look

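In 4 members the comparisons with mock went past 0.5 in opposite directions for the 2 strands. That is 9.3% of the 43 members with a value in both comparisons, where 4.29% of 12925 protein-coding genes did so, and the comparisons share the mock array. *ALDH18A1*, of proline synthesis, was at -0.79 with *miR-139-3p* but 0.63 with the guide strand. *UGT2B7* was at -1.45 (a bound) and 1.19, and *UGT2B15* at -0.69 (a bound) and 1.14. *CYP4V2* was at 0.62 and -0.96, the second a bound, and its 0.62 stayed past 0.5 in 4 of 9 alternatives. *ALDH18A1* was measured on all 3 arrays, while the others rest on an array where the gene was not well above background. The differences between the comparisons were not tested, as each rests on 1 array per group.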

How the results depend on the processing

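No paired analysis was possible because each group had 1 array and no number pairs the groups. The alternatives to the 17 members higher with *miR-139-3p* gave 6 with normexp, 8 with a threshold of 1, and 11 each with quantile normalization, the deposited log2 values and probes detected on all 3 arrays only. The 16 lower became 9 with normexp and 10 with a threshold of 1. With *miR-139-5p*, the 8 higher became 2 with normexp, 3 with a threshold of 1 and 3 with probes detected on all 3 arrays only, and the 8 lower became 2 with normexp, 2 with a threshold of 1 and 4 with spike-in scaling. Fewer genes have a value where bounds are left out, and a higher threshold passes fewer by construction; the other causes were not tested. The median of the members moved by less than the SD between probes in all alternatives. Scaling shifted the median of all protein-coding genes with *miR-139-3p* from -0.13 to -0.33 with the spike-in probes, -0.34 when unscaled, and 0.01 where the 75th percentile was taken over commonly detected probes. Of the values of single members, 591 moved by less than the SD between probes, 94 moved more (67 nearer to 0, 24 farther, 3 to the other side of 0) and 1 reversed: *CYP4F2* with *miR-139-3p* was at 0.81 with no filter on dim probes, since its dim probe then enters the mean. Signals near background limit the dim P450 and UGT values.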

Other observations

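*CYP51A1*, the lanosterol demethylase of cholesterol synthesis, which the choice by name left out, was at 3.50 with mock, at 4.02 (0.52 higher) with *miR-139-5p* and at 4.45 (0.96 higher) after *miR-139-3p*. The antisense RNA *CYP1B1-AS1* had probes at -2.90, -3.06 and -2.59 and at -3.81, -3.45 and -2.86, against a *CYP1B1* fold change of 0.07 with *miR-139-3p*. Of the transcribed CYP4F pseudogenes, *CYP4F29P* was at -3.28, -3.48 and -3.93 and *CYP4F35P* at -3.41, -3.84 and -4.48, the last not well above background, while *CYP4F62P* was highest with *miR-139-3p*.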
